A study of Rattus norvegicus with 6 samples.

Results

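Calpains are calcium-activated cysteine proteases, and calpastatin is their endogenous inhibitor. The 10 genes described here are the rows of the deposited expression table named Capn1, Capn2, Capn3, Capn5, Capn6, Capn7, Capn10, Capn15, Capns1 and Cast, out of 30957 genes in the table. They were taken by name and each name matched 1 row, and 9 of the 10 passed the expression filter, which left 12393 genes for testing. The family was chosen by the measured difference of a single member, since the study names Capn6 among genes that differed between crushed and intact nerves, and the counts of these same nerves gave that difference. The comparison of crushed with intact nerves is therefore given for the members as a description, with its error. No p is printed for a member, and the count of members past a threshold is given once beside the share of all genes, as a description too. RNA-seq was carried out on sciatic nerves of Sprague Dawley rats, 3 crushed nerves labelled as injured and 3 intact nerves of the opposite side labelled as normal. According to the methods, the rats were adult males, with no genetic change named, the nerves were crushed once with forceps, and the piece taken was the proximal stump at 4 days postinjury (dpi). The contralateral nerve of an injured rat is the only control, and the labels give neither the time point nor which nerves came from the same rat, so the spread between nerves may be partly technical. The sources differ in 3 respects. The methods list TRIzol extraction and a digestion with RNase R, which degrades linear RNA, while the labels name a column kit and no such digestion. In the methods the left nerve is crushed although the skin is opened on the right, the deposited design places the lesion on the right, and the groups here follow the labels.

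Classical calpains are pairs of a large catalytic subunit, encoded by Capn1 (µ-calpain) or Capn2 (m-calpain), and the small regulatory subunit encoded by Capns1. When calcium enters a cell they cut a limited number of sites in cytoskeletal, adhesion and signalling proteins, and Cast binds the activated enzyme and blocks it. After a nerve injury, calcium enters the axon and calpains take part in the breakdown of its cytoskeleton. Other members are expressed in few tissues, such as Capn3 in skeletal muscle and Capn6 in embryonic muscle and placenta. Capn6 lacks the cysteine of the active site and is not thought to be a protease.

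Total counts on genes were between 24844371 and 27139360 per nerve, and 3 counts, the smallest level taken as different from 0, came to between 0.110 and 0.121 normalized CPM (CPM, counts scaled by library size, with edgeR's TMM factors). The 10 genes held between 0.0850% and 0.0905% of the counts. Defining markers of the labelled tissue were at or near 0. Of the Schwann cell markers, Sox10, S100b and Mbp had at most 3 counts in every nerve, and Ncam1 was called lower in crushed nerves. Of 10 macrophage and leukocyte markers, Adgre1, Cd163 and Ptprc were at 0 in every nerve, whereas Cd14 (49 to 84 counts), Cd68 (29 to 52) and Csf1r (18 to 29) passed the filter. Of these 3, edgeR called 0, with 0 also at an unadjusted p under 0.05. The proliferation gene Mki67 had between 37037 and 43837 counts per nerve. In bulk RNA, fewer cells of a type and less RNA per cell cannot be told apart.

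Most of the family had a mean level of 4.22 FPKM or more, and the restricted members Capn6 and Capn3 lay far below the others. The authors' FPKM values (counts scaled by gene length and by library) allow levels of different genes to be set side by side, and over the 6 nerves they followed the order Capn2, Capns1, Cast, Capn7, Capn5, Capn1, Capn10, Capn15, Capn6 and Capn3. Capn2 had a mean of 92.9 ± 2.56 FPKM (SD, n = 6 nerves), above 92.8% of the genes tested. At the other end, Capn15 had 4.22 ± 0.226 FPKM, Capn6 0.189 ± 0.0863 FPKM and Capn3 0.0757 ± 0.0157 FPKM. The step from Capn15 to Capn6 was 22.3-fold, while no other neighbours in the order were more than 2.50-fold apart. In 8 of the 9 pairs of neighbours the ranges over the 6 nerves did not overlap, and the exception was Capn6 and Capn3. Capn6 lay above Capn3 within each group, and the overlap came from Capn6 in crushed nerve 1 (0.0942 FPKM), which was below Capn3 in intact nerve 2 (0.0995 FPKM).

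**Figure D1:**
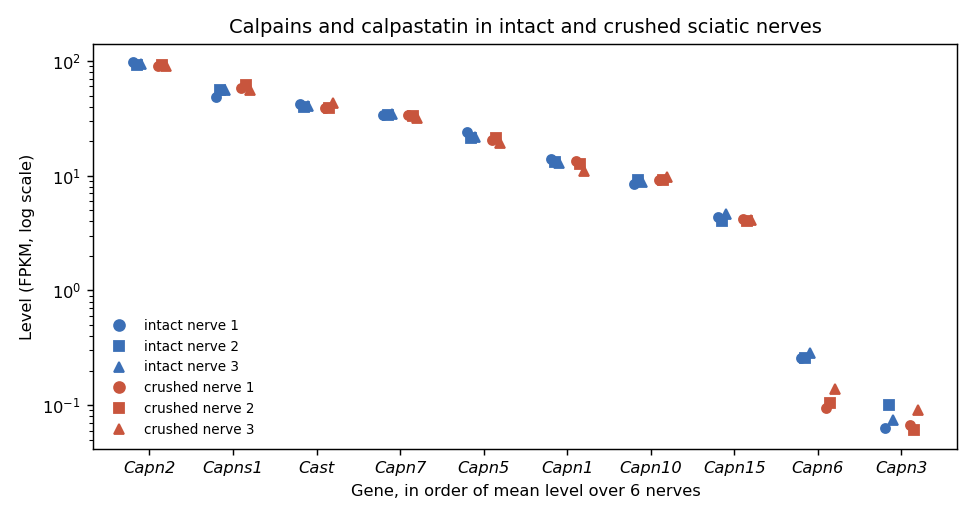
Level of each of the 10 genes in FPKM (log scale) in the 3 intact and 3 crushed nerves, 1 point per nerve, ordered by mean level. Capn2 is highest at 92.9 FPKM, Capn6 and Capn3 lie below 0.3 FPKM, and the groups part visibly only for Capn6.

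Capn2, on chromosome 13 from 100878650 to 100928811 (Rnor_6.0, the build in the submitters' processing notes), encodes the catalytic subunit that needs the higher calcium concentration. Its normalized CPM was 345, 326 and 333 in the intact nerves (numbers 1, 2 and 3, in this order throughout) against 318, 320 and 317 in the crushed nerves. All crushed nerves were lower than all intact nerves, by a small amount. The log2 fold change of crushed over intact was -0.07 (standard error 0.0379), an interval (95%) from 89.7% to 100.7% of the intact level.

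Capn1, the catalytic subunit that responds to lower calcium, lies on chromosome 1 from 221346066 to 221370322. It had 42.4, 39.9 and 39.2 normalized CPM in the intact and 40.2, 37.5 and 32.7 in the crushed nerves. The groups overlapped, and crushed nerve 3 was the lowest of the 6. Its log2 fold change was -0.14 (standard error 0.0763), with an interval from 81.0% to 102.3% of the intact level. Without crushed nerve 3 the log2 fold change was -0.06.

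Capns1, the small subunit that stabilizes both catalytic subunits, lies on chromosome 1 from 90919076 to 90921047. Its normalized CPM was 24.5, 27.7 and 27.7 in the intact and 28.6, 30.5 and 27.3 in the crushed nerves. The groups overlapped, with intact nerve 1 lowest, and the log2 fold change was 0.11 (standard error 0.0730), an interval from 96.8% to 121.1% of the intact level. The FPKM of Capns1 was computed with a length of 495 bases, against 2995 bases for Capn1. In raw counts Capns1 was below Capn1 in every nerve, for example 620 against 1072 in intact nerve 1, so its second place in the order of levels rests on that length.

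Cast, the inhibitor, lies on chromosome 2 from 1452116 to 1561464. It had 204.6, 194.1 and 196.1 normalized CPM in the intact and 186.1, 187.5 and 205.9 in the crushed nerves. Crushed nerve 3 was the highest of the 6 and the other crushed nerves the lowest, so the groups overlapped. The log2 fold change was -0.04 (standard error 0.0482), an interval from 90.5% to 104.9% of the intact level.

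The balance between protease and inhibitor RNA does not depend on how libraries are scaled, because it is taken within each nerve. The summed FPKM of Capn1 and Capn2 was 2.65, 2.63 and 2.65 times that of Cast in the intact and 2.69, 2.66 and 2.37 times in the crushed nerves. The groups overlapped, and only crushed nerve 3 stood away from the others. Capn2 exceeded Capn1 between 6.75-fold and 8.26-fold, with overlapping groups and the highest value again in crushed nerve 3. The summed FPKM of the catalytic subunits was 2.27, 1.90 and 1.93 times that of Capns1 in the intact and 1.80, 1.68 and 1.83 times in the crushed nerves. All crushed nerves were lower here, with a difference of means of -0.20 on the log2 scale, against SDs of 0.144 in intact and 0.0659 in crushed nerves. Intact nerve 1 was the highest, and without it the difference was -0.11. The size of this ratio rests on the short length used for Capns1.

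**Figure D2:**
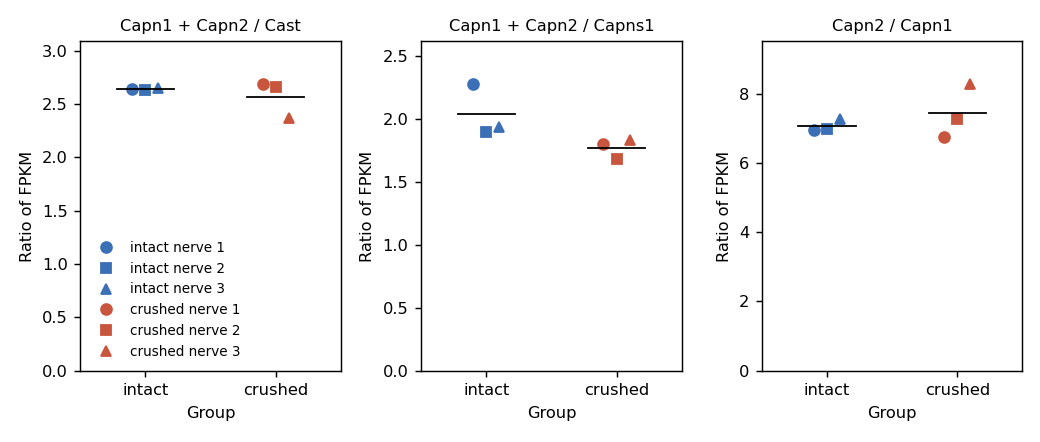
Ratios of FPKM within each nerve, for Capn1 plus Capn2 over Cast, Capn1 plus Capn2 over Capns1, and Capn2 over Capn1, with 1 point per nerve and a line at each group's mean of 3 nerves. The ratio to Cast is between 2.37 and 2.69 in all 6 nerves, and the ratio to Capns1 is lower in all crushed nerves.

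The widely expressed calpains outside the classical pair had log2 fold changes between -0.16 and 0.06. Capn5, which lacks the calcium-binding domain shared by the classical subunits, had 123.9, 110.2 and 111.6 normalized CPM in the intact and 103.6, 107.8 and 97.8 in the crushed nerves. The crushed nerves were all lower, and the difference on the log2 scale was -0.16 (standard error 0.0568), an interval from 82.0% to 97.6% of the intact level. Capn7, which binds proteins of the ESCRT-III membrane-sorting machinery, had 121.2, 120.9 and 122.1 in the intact and 118.0, 117.5 and 111.8 normalized CPM in the crushed nerves. These were also all lower in crushed nerves, and crushed nerve 3 was the farthest from the rest. For Capn7 the log2 fold change was -0.07 (standard error 0.0412).

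Capn10, a gene studied for its association with diabetes, had 19.5, 21.1 and 20.1 normalized CPM in the intact and 20.9, 20.7 and 21.9 in the crushed nerves. Capn15, the mammalian relative of a fly gene needed for optic lobe development, had 31.5, 29.3 and 33.1 in the intact and 29.7, 28.7 and 29.1 normalized CPM in the crushed nerves. The groups overlapped for both genes. The log2 fold changes were 0.06 for Capn10 (standard error 0.0689, interval from 94.1% to 116.2% of the intact level) and -0.10 for Capn15 (standard error 0.0643, interval from 84.4% to 102.8%).

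Of the restricted calpains, Capn6 differed between the groups by more than any other member, and Capn3 could not be compared at this depth. Capn6, on chromosome X from 115049154 to 115073890, was hit by 23, 24 and 25 reads in the intact and by 9, 10 and 12 in the crushed nerves. The groups did not overlap, with 72 counts in all intact and 31 in all crushed nerves. The log2 fold change was -1.26 (standard error 0.275), or 41.7% of the intact level with an interval from 27.4% to 63.6%. This difference was the reason for choosing the family and supports nothing further.

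The fibroblast markers called were lower in crushed nerves, and Pdgfra, which was not called, had a higher mean there. Of 7 fibroblast markers, 4 passed the filter and 2 were called, both lower in crushed nerves, Col1a1 with a log2 fold change of -0.69 and Col3a1 with -1.76 (edgeR's quasi-likelihood p of 0.000662 and 0.0268, adjusted after Benjamini and Hochberg over all genes tested). Thy1 (log2 fold change -0.23, edgeR adjusted p = 0.0552) and Pdgfra, a receptor of fibroblasts (0.19, adjusted p = 0.166), were not called, and Pdgfra had a mean of 46.6 normalized CPM in intact and 53.3 in crushed nerves. The summed level of the 7 was between 186 and 199 normalized CPM in intact and between 163 and 182 in crushed nerves, while Col1a2, Dcn and Lum were at 0 in every nerve. Col3a1 is limited by depth, with 22, 23 and 21 counts in the intact and 10, 3 and 7 in the crushed nerves. The part of the fibroblast markers in the difference of Capn6 was not tested.

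Capn3, on chromosome 3 from 112228720 to 112278408, was hit by 8, 13 and 9 reads in the intact and 9, 8 and 11 in the crushed nerves. It did not pass the filter, the groups overlapped, and without the filter the interval of its log2 fold change ran from -1.01 to 0.72. No difference was detectable at this depth. Markers of skeletal muscle, where Capn3 is mainly expressed, were near 0. Of the 9 muscle markers in the table, 5 had no count in any nerve, Ckm, Myl1, Mb, Myog and Pax7. The summed level was between 0.395 and 0.910 normalized CPM in intact and between 0.806 and 0.958 in crushed nerves. Only Tnnt3 passed the filter, with 7, 8 and 12 counts in the intact and 17, 26 and 15 in the crushed nerves. Its crushed nerves all lay above the intact nerves, with a log2 fold change of 1.03. It was not called (edgeR adjusted p = 0.166, unadjusted p = 0.0135).

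Across the family, 1 of the 9 members tested, Capn6, was past an adjusted p of 0.05, lower in crushed nerves, and none was higher. This count fell to 0 in all of the alternatives except the one without a filter on low counts and the study's limits. Of all 12393 genes tested, 3.12% were past it, 1.65% lower and 1.47% higher. Capn6 was also the only member past the limits named in the study, a log2 fold change beyond 1 in either direction together with a p under 0.001, read here as unadjusted, which 0.282% of all genes passed. The crushed nerves all lay below the intact nerves for 4 of the 9 members, Capn2, Capn5, Capn6 and Capn7, against 12.2% of all genes, and for no member did they all lie above, against 10.8% of all genes. The median log2 fold change of the 9 was -0.0733, against -0.0017 for all genes. Because the family was chosen with this comparison known, nothing is read from these counts.

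**Figure D3:**
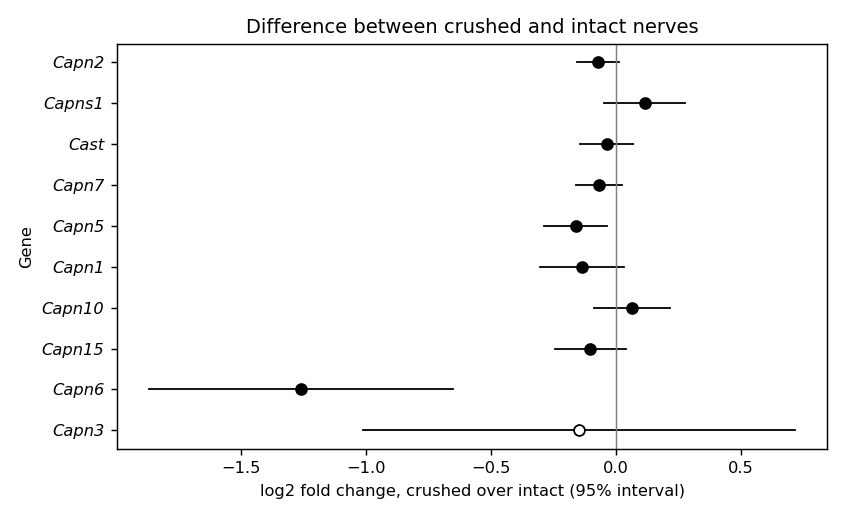
Log2 fold change of crushed over intact nerves (3 each) for each gene, with its 95% interval from edgeR; the open point is Capn3, which did not pass the expression filter. Capn6 stands at -1.26 and Capn3 has an interval from -1.01 to 0.72, while the other 8 points lie between -0.16 and 0.11.

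Another 5 rows of the table carry calpain names, and all were at or near 0. Capn9 and Capn13 had no count in any nerve, Capn11 had 2 counts in intact nerve 1 and none elsewhere, Capn12 had between 0 and 3 counts and Capn8 between 0 and 4. Capn8, a calpain of the stomach, is the neighbour of Capn2 on chromosome 13, with 51762 bases between them in the deposited table, so the most and one of the least counted calpains lie side by side. No difference between the groups was detectable for these 5 genes at this depth.

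The sequences upstream of the genes were compared next, a property that the choice of members did not use. RefSeq (GRCr8) gave a window of 250 bases before the start site for 8 of the 10 genes and for 4 of the 5 other calpains. CpG dinucleotides, which cluster in the promoters of widely expressed genes, are in capitals in the windows below, which set a pair of well expressed members with many CpGs, Capns1 and Capn7, beside the restricted members Capn3 and Capn6. Capns1 is on the minus strand at chr1:94582222-94582471, Capn7 on the plus strand at chr16:6551893-6552142, Capn3 on the plus strand at chr3:127861340-127861589 and Capn6 on the minus strand at chrX:112202179-112202428.
Capns1: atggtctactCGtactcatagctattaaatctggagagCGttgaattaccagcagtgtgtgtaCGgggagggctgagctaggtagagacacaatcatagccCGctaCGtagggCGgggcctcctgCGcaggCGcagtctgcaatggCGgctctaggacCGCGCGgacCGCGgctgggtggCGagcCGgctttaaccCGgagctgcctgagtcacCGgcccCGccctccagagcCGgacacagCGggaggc
Capn7: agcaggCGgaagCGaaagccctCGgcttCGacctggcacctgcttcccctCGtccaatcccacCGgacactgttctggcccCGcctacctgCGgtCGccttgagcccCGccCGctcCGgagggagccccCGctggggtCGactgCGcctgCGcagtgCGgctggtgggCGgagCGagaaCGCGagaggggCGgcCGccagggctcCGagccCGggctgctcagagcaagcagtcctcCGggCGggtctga
Capn3: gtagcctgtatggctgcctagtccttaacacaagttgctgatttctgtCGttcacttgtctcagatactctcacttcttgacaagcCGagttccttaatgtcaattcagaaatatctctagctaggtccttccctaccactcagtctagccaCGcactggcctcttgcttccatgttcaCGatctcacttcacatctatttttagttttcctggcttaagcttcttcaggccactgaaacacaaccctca
Capn6: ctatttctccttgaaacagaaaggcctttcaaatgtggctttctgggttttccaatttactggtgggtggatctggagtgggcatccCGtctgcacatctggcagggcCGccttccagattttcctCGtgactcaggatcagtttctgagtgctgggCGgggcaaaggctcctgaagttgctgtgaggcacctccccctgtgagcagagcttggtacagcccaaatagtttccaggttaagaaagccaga

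The window of Capn7 held 27 CpGs and that of Capns1 21, whereas those of Capn3 and Capn6 held 4 each. Capn10 had 22, Capn15 12, Capn2 10 and Cast 7. Thus, among genes with a window, the 6 with a mean of 4.22 FPKM or more had at least 7 CpGs. The 6 calpains at 0.189 FPKM or less, Capn8, Capn9, Capn12 and Capn13 included, had at most 5. Capn5 (21.4 FPKM), Capn1 (12.9 FPKM) and Capn11 had no window. Of all 33469 windows, 45.2% held at least 7 and 50.2% at most 5, with a median of 5. This is a description of 12 genes of a single family, with the limits of 7 and 5 read from the same windows, and was not tested. A GC box, searched as the letters GGGCGG on either strand, stood in the windows of 3 of the 8 members, Capns1, Capn7 and Capn6, and in 30.5% of all windows. A TATA box, searched as TATAAA on either strand, stood in 0 of the 8 and in 12.9% of all windows.

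**Figure D4:**
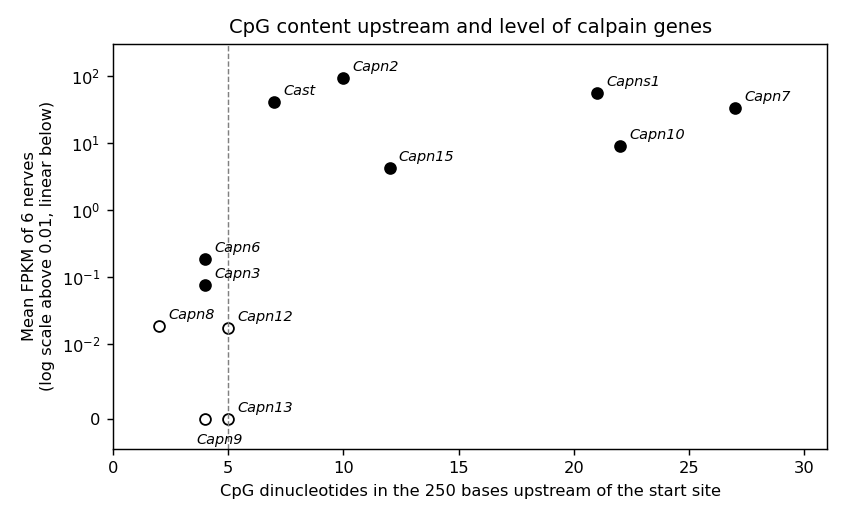
Mean FPKM over 6 nerves (log scale above 0.01) against the number of CpG dinucleotides in the 250 bases upstream of the start site, for 8 members (filled) and 4 other calpains (open), with the median of all windows, 5, as a dashed line. The 6 genes shown with 4.22 FPKM or more lie right of the line. The 6 with 0.189 FPKM or less lie on it or left of it. Capn1, Capn5 and Capn11 have no window and are not shown.

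Genes that work with calpains were compared in the same fit. Of 30 cytoskeletal and adhesion proteins that calpains are known to cut, 26 passed the filter, and 1 was called lower in crushed nerves and none higher. Of all genes tested, 1.65% were called lower and 1.47% higher. In the same edgeR test 9 of the 26 had an unadjusted p under 0.05, some lower and some higher in crushed nerves. The share of all genes under that limit was not counted. For 6 of the 26 the crushed nerves all lay below the intact nerves and for 3 all above, against 12.2% and 10.8% of all genes. The median log2 fold change was -0.0483, against -0.0017 for all genes. The gene called was Vcl, which encodes vinculin, a linker between integrins and actin. It had 1297, 1395 and 1348 normalized CPM in the intact and 1104, 1119 and 1126 in the crushed nerves, so the groups were well apart. Its log2 fold change was -0.27 with a standard error of 0.0375 (edgeR adjusted p = 0.00245), and the adjusted p was between 9.42e-07 and 0.0253 in the alternatives. The next smallest p belonged to Itgb1, the β1 integrin chain, with 1562, 1730 and 1685 normalized CPM in the intact and 1891, 1877 and 1849 in the crushed nerves. Its log2 fold change of 0.17 (standard error 0.0417) did not pass (adjusted p = 0.0513 from the same edgeR test), although it did in 4 of 10 alternatives, with adjusted p-values between 0.0143 and 0.210 over all 10. Sptan1, which encodes the spectrin chain that is a classical calpain substrate, stood at -0.08 on the log2 scale (edgeR adjusted p = 0.273).

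Of 22 genes of calcium entry, release, removal and sensing, 14 passed the filter. Of these, 1 was called lower and none higher, against 1.65% and 1.47% of all genes tested. An unadjusted p under 0.05 in edgeR was reached by 2 of the 14. For 2 of the 14 the crushed nerves all lay below the intact nerves and for 1 all above, against 12.2% and 10.8% of all genes. The median log2 fold change was -0.0015, against -0.0017 for all genes. The gene called was Atp2b4, a calcium pump of the plasma membrane, with 2.92, 2.20 and 2.46 normalized CPM in the intact and 1.25, 0.994 and 1.32 in the crushed nerves. The groups did not overlap. The log2 fold change was -1.09 with a standard error of 0.197 (edgeR adjusted p = 0.0131). It was no longer called with limma on FPKM (adjusted p = 0.106), without crushed nerve 1 (0.0568) or without crushed nerve 2 (0.0707). Calm2, a calmodulin gene, followed with a log2 fold change of -0.17 (adjusted p = 0.142).

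Of 11 penta-EF-hand relatives of Capns1 and binding partners of calpains, 8 were in the table and passed the filter, and none was called by edgeR, DESeq2 or limma, while 2 had an unadjusted p under 0.05 in edgeR. These were Pef1, a small calcium-binding protein of the same fold as Capns1, and Arhgef2, the exchange factor GEF-H1 that binds microtubules. On the log2 scale the difference was 0.17 for Pef1 (edgeR adjusted p = 0.156) and 0.09 for Arhgef2 (adjusted p = 0.260). The median of the 8 was 0.0380, against -0.0017 for all genes tested, of which edgeR called 3.12%. The crushed nerves all lay above the intact nerves for 2 of the 8 and below for 0, against 10.8% and 12.2% of all genes.

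Likeness in level over the 6 nerves was measured by Pearson's r of log2 normalized CPM, with 0.5 added before the log. Capn6 lay between 0.33 and 1.01 normalized CPM, so this offset is of the size of its values. The genes most like Capn6 were Coq7 (r = 0.9995), Atp8a1 (0.9985) and Osbpl3 (0.9956). All were lower in crushed nerves, but by much less than Capn6, with log2 fold changes of -0.21, -0.25 and -0.18. Coq7 was not called (edgeR adjusted p = 0.316). Atp8a1 and Osbpl3 were called (edgeR adjusted p = 0.0311 and 0.0251), but their adjusted p reached 0.159 and 0.148 in the alternatives. The genes most like Capn2 were Hist2h2ac (0.9941), Rps10 (0.9937) and Supt6h (0.9935), with log2 fold changes of -0.30, -0.44 and -0.10. Hist2h2ac and Supt6h were not called (edgeR adjusted p = 0.137 and 0.243). Rps10 was called (edgeR adjusted p = 0.0388), but its adjusted p reached 0.160 in the alternatives. Hist2h2ac belongs to a family of near-identical histone genes and Rps10 is carried by 2 rows of the table, so their reads may be divided between copies. The other Rps10 row had a log2 fold change of -0.08 with overlapping groups (edgeR adjusted p = 0.6335). With 6 nerves in 2 groups, 313 genes had an r above 0.9 with Capn6 and 482 with Capn2, so these likenesses are descriptions of 6 points that share the split into crushed and intact nerves.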

How the data were processed

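RNA of 3 crushed and 3 intact sciatic nerves was sequenced. The authors deposited 1 table with raw counts per Ensembl gene and nerve, not normalized, and with FPKM values, which they scaled by a fixed length per gene and by the total count of the nerve. The submitters' processing notes name HISAT2, StringTie 1.3.0 and the build Rnor_6.0; the counting program, its use of strand and the annotation release are not given in the sources used here. All 12 columns of values carry a sample's title, and 0 were left over.

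Counts of all 6 nerves entered 1 quasi-likelihood model without a replicate block (edgeR 4.0.16 and limma 3.58.1 under R 4.3.3). Libraries were scaled by TMM, and genes were kept by filterByExpr at a minimum count of 10. Calls used a Benjamini-Hochberg adjusted p under 0.05 over all 12393 genes. The standard error and the 95% interval of a log2 fold change come from the test statistic. A run on simulated counts looked at calls only, and picked out 200 of 200 genes given a difference and 6 of 12111 given none. Differences were given only to genes with higher counts than Capn6, and were larger than those of most genes named here. The run therefore cannot show how often genes with few counts or small differences are called. Whether the standard errors and intervals are accurate was not tested. Levels and ratios between genes use the deposited FPKM. The alternatives were the replicate block, DESeq2 1.42.0, no filter, limma on log2(FPKM + 0.1), each nerve left out in turn, the study's limits, FPKM rescaled by TMM and ratios with a pseudocount of 0.1. Upstream sequences come from RefSeq (GRCr8); Capn1 and Capn5 had none there.

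The members and gene lists were chosen with earlier results of these data known. Named were the 10 members, all other rows called Capn, of each of 3 lists the genes called (the 2 with the smallest p where fewer than 2 were called), the 3 genes most like Capn6 and Capn2, and cell type markers; Sptan1 was added after its value was seen. Of the other marker lists, 0 endothelial, smooth muscle, adipocyte and proliferation genes were called by edgeR, with 1, 1, 0 and 1 of them at an unadjusted p under 0.05.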

Additional observations from a re-analysis of the deposited data

How the results depend on the processing

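With the replicate number as a block, 300 genes were called in place of 387, and 0 members in place of 1, since Capn6 was no longer called. The block changed no other call in the 3 gene lists. Same-numbered nerves did not deviate together (correlations of -0.0148, 0.00586 and 0.0756 over all genes). Crushed and intact nerves of different numbers were not compared in this way, so the correlations cannot show whether a number marks 1 rat. The labels do not pair the nerves, and the main model therefore left the block out. The members called were also 0 with DESeq2, with limma on FPKM, and from 0 to 0 when any of the 6 nerves was left out. The log2 fold change of Capn6 was negative in all 10 alternatives, from -1.42 to -0.79, and Capn3 alone among the members changed sign, to 0.06 without intact nerve 2.

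All genes called numbered 242 with limma on FPKM (156 higher and 86 lower, against 182 and 205), 35 at the study's limits, and between 179 and 392 with each nerve left out. Calpain substrates called were 2 without the filter (Itgb1 and Vcl), 3 with DESeq2 (Ctnnb1 also), 0 at the study's limits, and between 1 and 4 with each nerve left out, the 4 (with Nefh) without intact nerve 1. Calcium handling genes called were 2 without the filter (Atp2b4 and Ryr3), 0 with limma on FPKM, and between 0 and 2 with each nerve left out, 0 without crushed nerve 1 or 2 and 2 without crushed nerve 3. The causes were not tested. The order of the members' levels and the ratios between subunits moved by less than the spread between nerves in all alternatives run on them, but without crushed nerve 3 the group difference changed sign for the ratio to Cast (log2 0.02, against -0.04) and for Capn2 over Capn1 (-0.01, against 0.07). With under 30 counts per nerve, Capn3 and Capn6 are limited by depth.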

Other observations

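Related genes of the calpain substrate and marker lists were counted very unequally in these nerves, and the genes named here were picked with their values known. Of the neurofilament chains, the main intermediate filaments of axons, Nefh had between 647 and 1002 counts per nerve, whereas Nefl had at most 2 and Nefm had 0. Of the chains of type I collagen, Col1a1 had between 293 and 537 counts and Col1a2 had 0 in every nerve. Cttn, which encodes the actin regulator cortactin, is carried by 2 rows of the table, with at most 2 counts in any nerve.

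Pxn, which encodes the focal adhesion protein paxillin, had 287, 573 and 509 normalized CPM in the intact against 542, 245 and 233 in the crushed nerves 1, 2 and 3. The groups overlapped, and each held a nerve far from its other nerves, and its log2 fold change was -0.43 with a standard error of 0.311 (edgeR adjusted p = 0.539).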
